A study of Ovis aries with 23 samples.

Results

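DBP (ENSOARG00000011967) and TEF (ENSOARG00000018238) were taken as the PAR bZIP output factors of the circadian clock, because both are known activators of D-box promoters. They are 2 of the 25197 genes counted in each of the 23 samples, and both passed the filter on low counts in every comparison. PAR bZIP proteins are transcription factors with a proline- and acidic-rich domain that bind the D-box, and the repressor NFIL3 competes with them there. DBP itself is driven through E-boxes by the CLOCK and ARNTL (BMAL1) activators and is held down by the PER and CRY repressors, so its RNA rises and falls over the day in most tissues. In the pars tuberalis (PT), the part of the pituitary that reads the melatonin signal of night length, TEF is known for acting on D-boxes of EYA3, a coactivator of the thyrotrophin gene TSHB.

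The samples were PT tissue of neutered male Scottish blackface sheep, sequenced as total RNA libraries. The SP group (5 samples) came from sheep on short photoperiod, and the other groups (6 samples each) came from sheep moved to long photoperiod (LP) for 1, 7 or 28 days. The labels do not say whether each sample is a separate animal, so p-values measure the spread between these samples, which may be in part technical. The ages of the sheep are not given in the sources used here. The labels number the samples within each group. What odd and even numbers mark, and the time of day at which these samples were taken, are not given in the sources used here, although sampling times varied across the study.

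Total counts ranged from 307952 to 4413929 per sample with a median of 3332320, and the shallowest sample, LP day 1 sample 4, lay well below the next, at 1852503. DBP had 38 counts and TEF 53 in that sample, and at least 149 and 223 elsewhere, so counting error limited both genes in that sample more than in any other. LP day 1 samples 3 and 4 were the most alike pair of a group, and were kept as separate samples. Their mean chi-square was 1.14 per gene against 1.75 to 40.9 in the other 54 pairs. This measure tends to be lower where a sample is shallow, and the pair at 1.75 was samples 4 and 6 of LP day 1. Sample 3 has an odd number and sample 4 an even number. Of the 5 PT thyrotroph markers, CGA was at 3886 to 11559 CPM (counts scaled to library size) in every sample. CHGA was at 793 to 4292 CPM, TSHB at 47.0 to 1580, EYA3 at 20.4 to 969 and MTNR1A at 0 to 41.5. The 0 of MTNR1A was that of the shallowest sample. CGA encodes the common alpha subunit, so its level does not by itself measure PT content. The pars distalis adjoins the PT, and the summed level of their 6 markers was between 34994 and 272700 CPM. The 3 markers of folliculostellate or glial cells, the other main PT cell type, summed to 719 to 1987 CPM, with none at 0 in any sample.

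On SPs, DBP was at 153, 94.5, 157, 74.9 and 60.1 CPM in samples 1 to 5. After 1 day of LPs it was at 76.1, 100.3, 122, 113, 125 and 75.6 CPM in samples 1 to 6, within the range of the SP samples. The means were 108 ± 44.7 CPM (SD, n = 5) on SPs and 102 ± 22.0 CPM (SD, n = 6) at LP day 1. By LP day 7, DBP had a mean of 149 ± 64.4 CPM (SD, n = 6), with a lowest value of 94.8, a median of 128 and a highest of 265. At 28 days the mean was 175 ± 68.9 CPM (SD, n = 6), with a lowest value of 107, a median of 149 and a highest of 289. The order of the means was LP day 1, SP, LP day 7 and LP day 28. Every pair of groups overlapped, and the gaps between neighbours in that order were smaller than the SD of either group.

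TEF was at 142, 81.3, 125, 83.3 and 114 CPM in SP samples 1 to 5, a mean of 109 ± 26.4 CPM (SD, n = 5). Its values after 1 day of LPs were 115, 110.3, 123, 157, 96.1 and 113 CPM, a mean of 119 ± 20.7 CPM (SD, n = 6). The highest of these, 157 CPM, was that of the shallowest sample. After 7 days TEF had a mean of 139 ± 36.8 CPM (SD, n = 6), with a lowest value of 104, a median of 134 and a highest of 202. At 28 days the mean was 151 ± 36.9 CPM (SD, n = 6), with a lowest value of 102, a median of 151 and a highest of 202. The means were thus in the order SP, LP day 1, LP day 7 and LP day 28, with overlap between every pair of groups and with neighbours closer than their SDs.

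**Figure D1:**
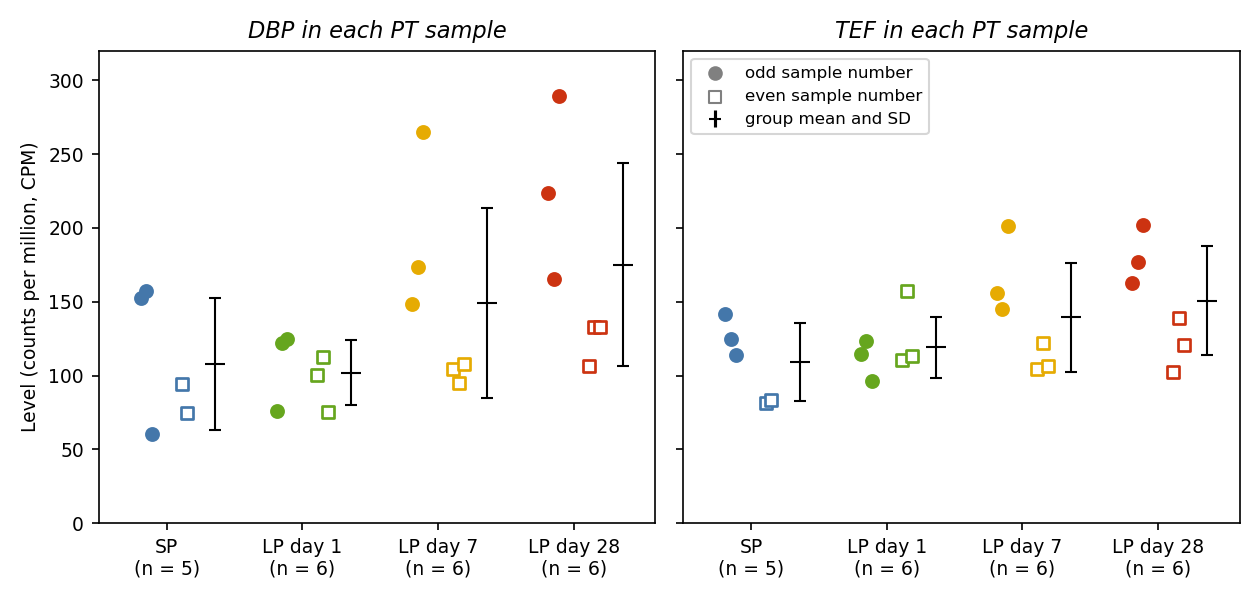
Level of DBP (left) and TEF (right) in CPM in each PT sample on SPs (n = 5) and after 1, 7 or 28 days of LPs (n = 6 each), with filled circles for odd and open squares for even sample numbers, and with the mean and SD of each group. At LP days 7 and 28 the odd samples are at 149 CPM or more for DBP and at 145 CPM or more for TEF, above every even sample.

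No change of DBP or TEF with photoperiod passed an FDR of 0.05 in edgeR's quasi-likelihood test, adjusted over all genes tested. Both are in the study's tables of changed genes, whose values were not used here. At LP day 1 against SPs, DBP differed by -0.10 on the log2 scale (standard error 0.23) and TEF by 0.09 (standard error 0.16), each with an FDR of 1.00. No gene was called in that comparison (0%), 497 of 14920 had an unadjusted p under 0.05, and 7 were called by edgeR's exact test, 2 by DESeq2 and 0 by limma voom. The sign for DBP turned without SP sample 1 (0.06) or SP sample 3 (0.08).

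The log2 fold change between SPs and LP day 7 was 0.46 for DBP (standard error 0.29, edgeR FDR 0.485) and 0.35 for TEF (standard error 0.18, edgeR FDR 0.405). Of the 15030 genes tested, 40 (0.266%) were called, and leaving out 1 sample moved that count from 7 (without SP sample 4) to 113 (without LP day 7 sample 6). Between SPs and LP day 28, it was 0.69 for DBP (standard error 0.26), a level 1.61-fold that of SPs, with an unadjusted edgeR p of 0.0177 and an FDR of 0.249. TEF gave 0.46 (standard error 0.17), or 1.38-fold, with an unadjusted edgeR p of 0.0167 and an FDR of 0.246. In this comparison 100 of 14929 genes (0.67%) were called, so neither gene was among them. That count was 41 to 110 with 1 sample left out, the lowest without SP sample 2. When the parity of the sample number was a covariate, the TEF difference at LP day 28 became 0.52 (standard error 0.10). It passed with an edgeR FDR of 0.0243, whereas DBP gave 0.73 (standard error 0.21, edgeR FDR 0.112). That fit takes odd and even numbers to mark the same thing in both groups, which the sources do not give. Parity was chosen with earlier results of these data known, so this pass is not independent evidence.

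Among the LP groups, which share samples with the comparisons above, the largest difference of DBP was between LP days 1 and 28. It was 0.79 on the log2 scale (standard error 0.21), with 5 of 6 LP day 28 samples above every LP day 1 sample, an unadjusted edgeR p of 0.00113 and an FDR of 0.218. TEF differed there by 0.37 (standard error 0.15, edgeR FDR 0.538), with 3 of 6 samples above every LP day 1 sample. A total of 32 of 14820 genes (0.216%) were called. Between LP days 1 and 7, DBP differed by 0.55 (standard error 0.23, edgeR FDR 0.882) and TEF by 0.25 (standard error 0.16, edgeR FDR 0.892), where 3 of 14897 genes (0.0201%) were called. From LP day 7 to day 28, the differences were 0.23 for DBP (standard error 0.25, edgeR FDR 0.915) and 0.12 for TEF (standard error 0.17, edgeR FDR 0.936), where 1 of 14890 genes (0.00672%) was called.

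The clearest contrast of both genes was between odd and even sample numbers at LP days 7 and 28. DBP at LP day 7 was at 149, 174 and 265 CPM in samples 1, 3 and 5 and at 105, 94.8 and 108 CPM in samples 2, 4 and 6. By LP day 28 it was at 224, 165 and 289 CPM in the odd samples and at 107, 133 and 133 CPM in the even ones. All 6 odd samples thus lay above all 6 even samples, with a mean of 211 ± 57.5 CPM against 113 ± 15.8 CPM (SD, n = 6 each), a ratio of 1.86. The odd samples were also the more spread, with a coefficient of variation of 27.2% against 13.9%.

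TEF fell into the same order. Its LP day 7 values were 156, 145 and 202 CPM in the odd samples and 104, 122 and 107 CPM in the even ones. Its LP day 28 values were 162, 177 and 202 CPM in the odd and 102, 139 and 121 CPM in the even samples. No even sample reached the lowest odd sample, and the means were 174 ± 23.8 CPM and 116 ± 14.2 CPM (SD, n = 6 each), a ratio of 1.50. Of the 14890 genes tested, 198 (1.33%) had odd and even samples that did not overlap, and in 127 (0.853%) the even samples were the lower.

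With the LP day as a term, even-numbered samples were lower than odd-numbered ones by -0.90 on the log2 scale for DBP (standard error 0.14, edgeR FDR 0.00278) and by -0.58 for TEF (standard error 0.10, edgeR FDR 0.0057). Both genes were called, in a comparison that called 152 of 14890 genes (1.02%), of which 107 (0.719%) were lower and 45 (0.302%) higher in even samples. The split by sample number was proposed with these values known, so its p-values are a description of these samples and not independent evidence. Both genes stayed called and lower in each of 22 alternative fits, the removal of any single sample included. DBP lay between -1.004 and -0.77 over these fits and TEF between -0.68 and -0.51. Total counts overlapped between the sets, from 2190640 to 4413929 in odd and from 2666363 to 3532006 in even samples.

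**Figure D2:**
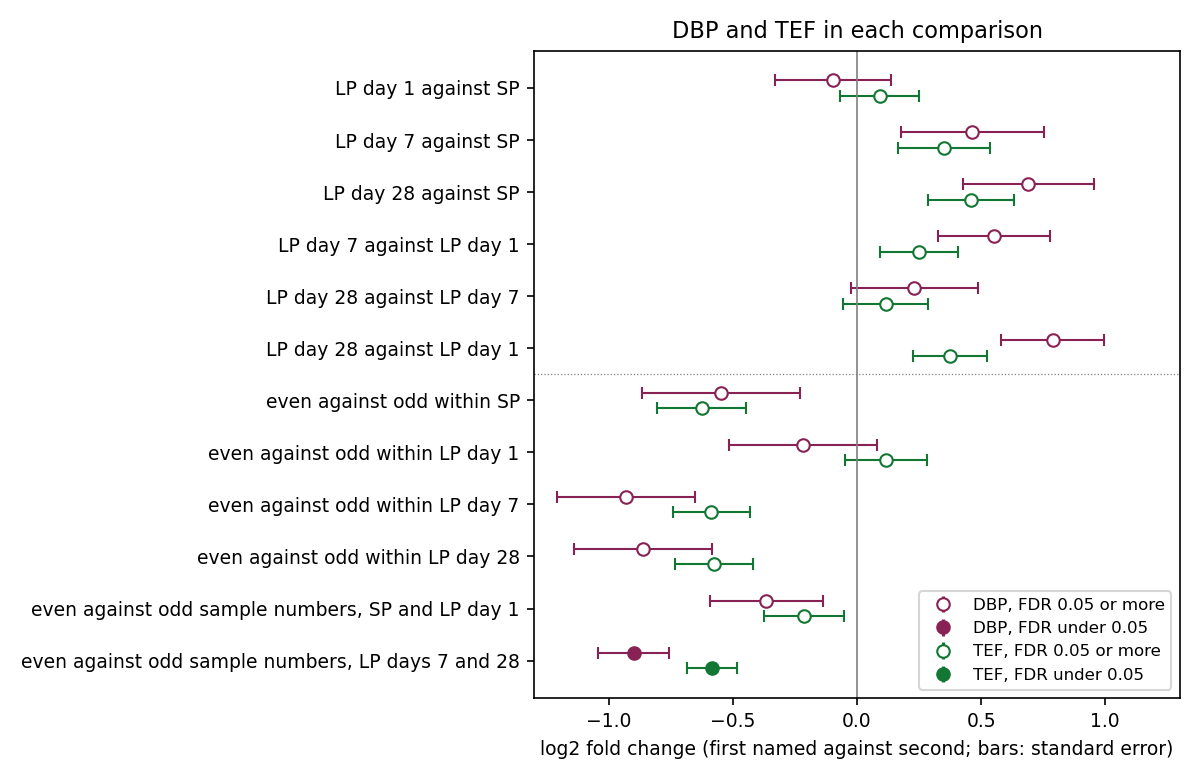
Log2 fold change of DBP and TEF, with its standard error, in the comparisons of photoperiod groups (above the dotted line) and of even against odd sample numbers (below it), with filled symbols for an edgeR FDR under 0.05. Only the pooled contrast of LP days 7 and 28 is filled, at -0.90 for DBP and -0.58 for TEF.

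The same contrast was fitted in each group, from a model of all 23 samples with 8 cells of group by parity. DBP gave -0.93 within LP day 7 (standard error 0.28, edgeR FDR 0.274) and -0.86 within LP day 28 (standard error 0.28, edgeR FDR 0.589). TEF gave -0.59 (standard error 0.16, edgeR FDR 0.172) and -0.58 (standard error 0.16, edgeR FDR 0.411). With 3 samples a side, none of the 4 values was called, while 22 (0.141%) and 5 (0.0319%) of 15653 genes were called within LP days 7 and 28. The odd and even samples of each LP day did not overlap for either gene, as was also so for 2350 (15%) and 2165 (13.8%) of these genes.

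On SPs, TEF was at 114 to 142 CPM in the 3 odd samples and at 81.3 and 83.3 CPM in the 2 even ones. These did not overlap, as for 3778 of 15653 genes (24.1%), and the log2 fold change was -0.63 (standard error 0.18, edgeR FDR 0.567). DBP did not divide in that way, because sample 5, with an odd number, had the lowest value of all 23 samples, 60.1 CPM, and its fold change was -0.55 (standard error 0.32, edgeR FDR 0.688). Within LP day 1 the odd and even samples overlapped for both genes, as for all but 1058 of these genes (6.76%), with -0.22 for DBP (standard error 0.30, edgeR FDR 0.992) and 0.12 for TEF (standard error 0.17, edgeR FDR 0.993). The TEF value was -0.01 without the shallowest sample, LP day 1 sample 4, and 0.02 without LP day 1 sample 5.

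Over SPs and LP day 1 together, the contrast was -0.36 for DBP (standard error 0.23, edgeR FDR 0.999) and -0.21 for TEF (standard error 0.16, edgeR FDR 1.00). Odd and even samples overlapped for both, as for all but 49 of 14920 genes (0.328%). No gene was called there by edgeR (0%), 766 had an unadjusted p under 0.05, and DESeq2 called 2 and limma voom 0. The difference between this contrast and that of LP days 7 and 28 was itself tested. It was -0.51 for DBP (standard error 0.29, unadjusted edgeR p 0.0901, FDR 0.839) and -0.33 for TEF (standard error 0.16, unadjusted edgeR p 0.058, FDR 0.811), so a larger contrast at LP days 7 and 28 was not shown for either gene. In that test 4 of 15653 genes (0.0256%) were called.

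Photoperiod differences were also taken within each parity, although odd and even numbers may not mark the same thing in each group. Among odd samples, LP day 28 exceeded SPs by 0.86 for DBP (standard error 0.28, edgeR FDR 0.357) and by 0.50 for TEF (standard error 0.16, edgeR FDR 0.341) on the log2 scale. Among even samples, these were 0.55 for both DBP (standard error 0.32, edgeR FDR 0.484) and TEF (standard error 0.18, edgeR FDR 0.193). Between SPs and LP day 7, DBP gave 0.65 among odd samples (standard error 0.27, edgeR FDR 0.399) and 0.27 among even samples (standard error 0.32, edgeR FDR 0.849). TEF gave 0.39 (standard error 0.16, edgeR FDR 0.370) and 0.43 (standard error 0.18, edgeR FDR 0.490) there. Both genes thus had a positive value in each parity at LP days 7 and 28, and none passed the test, where 31 (0.198%) and 33 (0.211%) of 15653 genes were called among odd samples at LP days 7 and 28 and 8 (0.0511%) and 48 (0.307%) among even samples. Between SPs and LP day 1, odd samples gave -0.20 for DBP (standard error 0.28) and -0.19 for TEF (standard error 0.16), each with an edgeR FDR of 1.00. Even samples gave 0.13 for DBP (standard error 0.33, edgeR FDR 0.964) and 0.56 for TEF (standard error 0.19, unadjusted edgeR p 0.00689, FDR 0.663). The TEF value of even samples at LP day 1 was thus close to that at LP day 28, and the odd and even samples had opposite signs. Whether the odd and even values differ was not tested. The even value rests on 2 SP samples, at 81.3 and 83.3 CPM, and includes the shallowest sample, LP day 1 sample 4, at 157 CPM. With 1 sample left out, it ranged from 0.426 to 0.649. No gene was called at LP day 1 in either parity by edgeR, where 551 genes among odd and 1106 among even samples had an unadjusted p under 0.05.

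The ratio of DBP to TEF counts within a sample does not depend on library size or normalization. Its geometric means on SPs and on LP days 1, 7 and 28 were 0.944, 0.848, 1.03 and 1.12. It ranged from 0.529 in SP sample 5 to 1.43 in LP day 28 sample 5. In 8 comparisons the largest difference was that of LP day 28 against LP day 1, 0.41 on the log2 scale, with a two-sided exact permutation p of 0.0541 and an adjusted p of 0.225. Even-numbered samples of LP days 7 and 28 had a ratio lower by -0.28 on the log2 scale than odd ones, with an exact permutation p of 0.0563 and an adjusted p of 0.225. A different size of change in DBP and TEF was therefore not shown, although the fitted difference of DBP was the larger in size in each of these 8 comparisons.

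**Figure D3:**
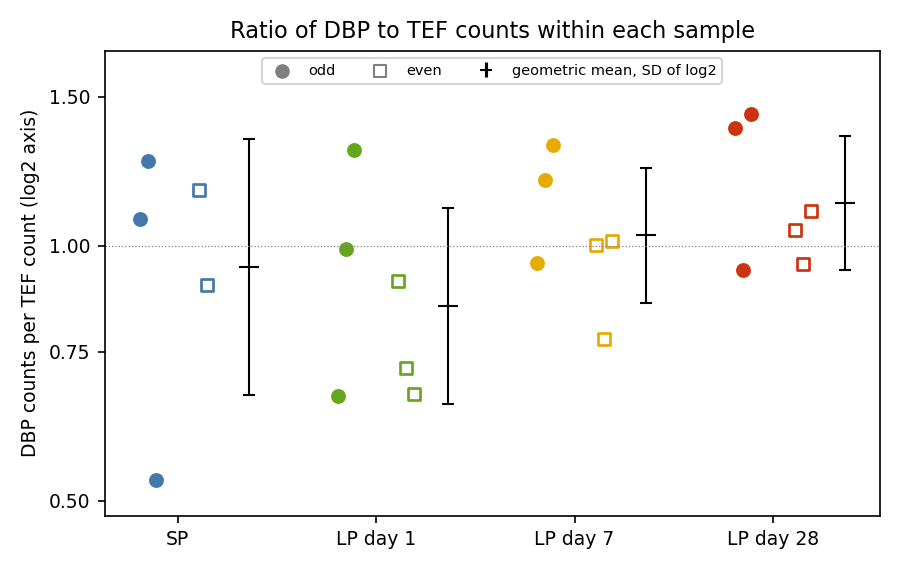
Ratio of DBP to TEF counts in each sample on a log2 axis, by group, with filled circles for odd and open squares for even sample numbers, and with the geometric mean and the SD of the log2 ratio. The geometric means run from 0.848 (LP day 1) to 1.12 (LP day 28), and the groups overlap.

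Levels of DBP and TEF correlated across samples. Over 23 samples, Pearson's r of log2 CPM was 0.788 and Spearman's rho 0.781. The permutation p, adjusted over 5 sets of samples, were 0.0001, the smallest that the resamples can give, and 0.0002. Without the 2 samples farthest from the DBP median, r was 0.662. Over the 12 samples of LP days 7 and 28, r was 0.913 and rho 0.874, with adjusted permutation p of 0.0002 and 0.00145, and r was 0.831 without the 2 farthest. These samples differ by parity in both genes, so r was also taken within odd and even samples. Among the 6 odd samples, r was 0.781 and rho 0.714 (exact permutation p 0.103 and 0.136, adjusted 0.171 and 0.175), and r was 0.0743 without the 2 farthest. Among the 6 even samples, r was 0.555 and rho 0.257 (exact permutation p 0.25 and 0.658, adjusted 0.25 and 0.658), and r was -0.938 without the 2 farthest. On SPs and LP day 1 (n = 11), r was 0.414 and rho 0.482, with adjusted permutation p of 0.25 and 0.175, and r was 0.489 without the 2 farthest. The relation thus passed the test over all samples and over LP days 7 and 28, and did not within the odd samples, the even samples, or SPs and LP day 1.

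**Figure D4:**
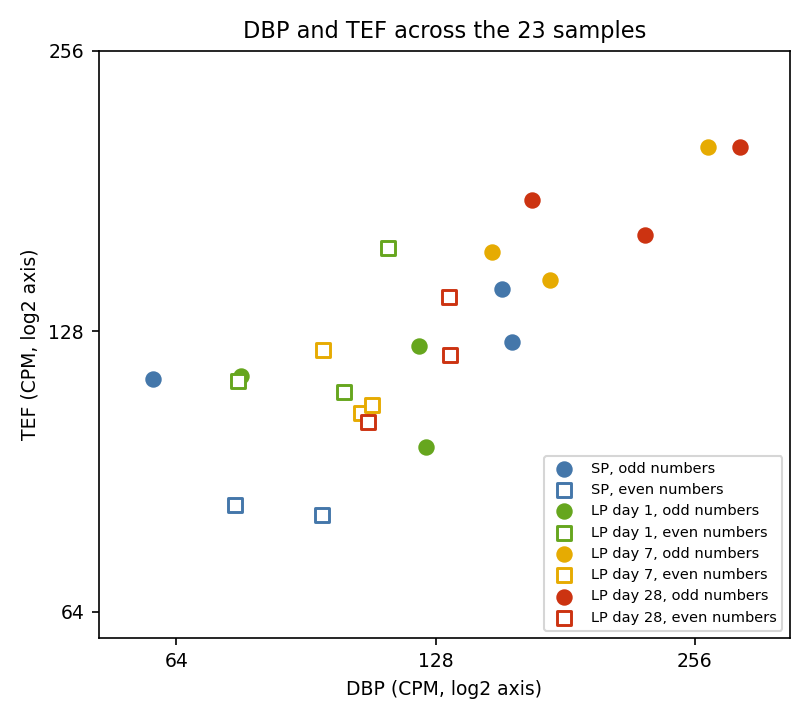
TEF against DBP in CPM on log2 axes in the 23 samples, coloured by group, with filled circles for odd and open squares for even sample numbers. The 6 odd samples of LP days 7 and 28 are at the upper right, with DBP at 149 CPM or more and TEF at 145 CPM or more.

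Genes were ranked by Pearson's r with each factor over the 23 samples, as a description in which all points share the libraries and their depth. Of the 15704 genes, 1103 others have a single paired symbol, and only these can be named. Symbols come from the study's tables of changed genes, so the genes that can be named are a selected set. Among them, the genes most like DBP were ZMYND15 (r 0.862), CIART (r 0.848), TEF (r 0.788), ACAP3 (r 0.785) and the gene listed as MPER1 (r 0.778), followed by ANGPTL2, TMCO3 and CXCL16 (r 0.763, 0.755 and 0.746). TEF was thus the third most similar gene to DBP of all those ranked. The lowest correlations with DBP among named genes were those of ARNTL (r -0.695), SOX14 (r -0.684), TEKT1 (r -0.673) and MTERF2 (r -0.664).

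Among the genes with a symbol, those most like TEF were ANGPTL2 (r 0.816), CIART (r 0.813), PER3 (r 0.795), DBP (r 0.788) and C19orf26 (r 0.787), followed by ZMYND15, ACSL4 and TMCO3 (r 0.760, 0.760 and 0.749). DBP ranked 8 of all 15704 genes by likeness to TEF. TEKT1 (r -0.818), MTERF2 (r -0.758), PGR (r -0.702) and RP9 (r -0.696) were at the other end. With each group's mean taken off, CIART remained near the top for both DBP (r 0.829) and TEF (r 0.775). DBP and TEF then correlated at r 0.725, a lower rank than before. TEF was at rank 28 of all 15704 genes for DBP. For TEF, DBP was at rank 44 of all genes and 12 among those with a symbol. ZMYND15, ACAP3, MPER1 and TEF also stayed among the 8 highest for DBP, and C19orf26, ANGPTL2 and PER3 among the 8 highest for TEF. RAB11FIP3 was then first for DBP (r 0.892) and LDB1 first for TEF (r 0.857).

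Of 24 listed clock genes, 12 could be paired with an identifier, and all but ARNTL2 were tested in every comparison. They carry a symbol because the study listed them as changed with photoperiod, so their counts are not independent evidence. The same holds for DBP, TEF and every other gene given values here. Between SPs and LP day 28, 2 of 12 were called, against 0.67% of all genes, and the median log2 fold change was 0.35, against -0.01 over all genes. ARNTL, the partner of CLOCK, fell by 0.86 on the log2 scale (standard error 0.19, edgeR FDR 0.0481), with a mean of 49.0 ± 16.3 CPM on SPs (SD, n = 5) and 26.9 ± 4.12 CPM after 28 days (SD, n = 6). ARNTL2, its paralogue, rose (edgeR FDR 0.000785) from at most 0.795 CPM, with no more than 3 counts in any SP sample, to 3.41 to 11.3 CPM. The number of clock genes called was 2 without SP sample 1 or SP sample 3, and 1 without any other sample. CIART, a repressor of CLOCK and ARNTL, differed by 1.79 (standard error 0.50, edgeR FDR 0.112) and CRY1, a core repressor, by -0.81 (standard error 0.67, edgeR FDR 0.638).

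Between SPs and LP day 7, ARNTL2 alone was called (edgeR FDR 0.0463), and no clock gene was called without any one of the SP samples or without LP day 7 sample 1, 4 or 5. CIART differed there by 1.99 (standard error 0.49, edgeR FDR 0.0852), and BHLHE41 and NR1D1 by 1.20 (standard error 0.39, edgeR FDR 0.181) and 1.17 (standard error 0.45, edgeR FDR 0.243). ARNTL2 was also called at LP day 28 against LP day 1 (edgeR FDR 0.000689), with ARNTL at -0.82 (standard error 0.17, edgeR FDR 0.0652). None of the 11 clock genes tested between SPs and LP day 1 was called by edgeR, DESeq2 or limma voom, and 0 had an unadjusted edgeR p under 0.05.

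Between odd and even samples of LP days 7 and 28, 4 of 12 clock genes were called beside DBP and TEF, against 1.02% of all genes, and the median was -0.37, against 0.00 over all genes. CRY1 was higher in even samples by 3.18 on the log2 scale (standard error 0.18, edgeR FDR 2.87e-08), with 16.9 to 29.3 CPM in odd and 138 to 302 CPM in even samples. CIART differed by -2.01 (standard error 0.28, edgeR FDR 0.000811), with 17.6 to 74.6 CPM in odd and 7.53 to 16.5 CPM in even samples. NR1D1, which encodes the repressor REV-ERBα, differed by -1.55 (standard error 0.25, edgeR FDR 0.00283), with 107 to 458 CPM in odd and 67.7 to 102 CPM in even samples. The sets did not overlap for these 3 genes, as for 1.33% of all genes tested. BHLHE41, a repressor that binds E-boxes, differed by -1.25 (standard error 0.24, edgeR FDR 0.0124), with 4 of 6 even samples below every odd one. Only 3 of the 4 were called without LP day 7 sample 2 or 4.

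DBP and TEF therefore shared the direction of CIART, NR1D1 and BHLHE41, with smaller estimates, and were opposite in sign to CRY1. PER3, a period repressor, differed by -0.51 (standard error 0.13, edgeR FDR 0.0892), which did not pass the test. None of 11 tested clock genes was called between odd and even samples of SPs and LP day 1 by edgeR, DESeq2 or limma voom, and 1 had an unadjusted edgeR p under 0.05. The difference of the contrasts was 2.88 for CRY1 (standard error 0.82, edgeR FDR 0.409), -1.53 for CIART (standard error 0.46, edgeR FDR 0.469), -1.15 for NR1D1 (standard error 0.32, edgeR FDR 0.365) and -1.003 for BHLHE41 (standard error 0.25, edgeR FDR 0.270). None of the 12 clock genes passed that test in edgeR, where 4 had an unadjusted p under 0.05, nor in DESeq2 or limma voom.

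**Figure D5:**
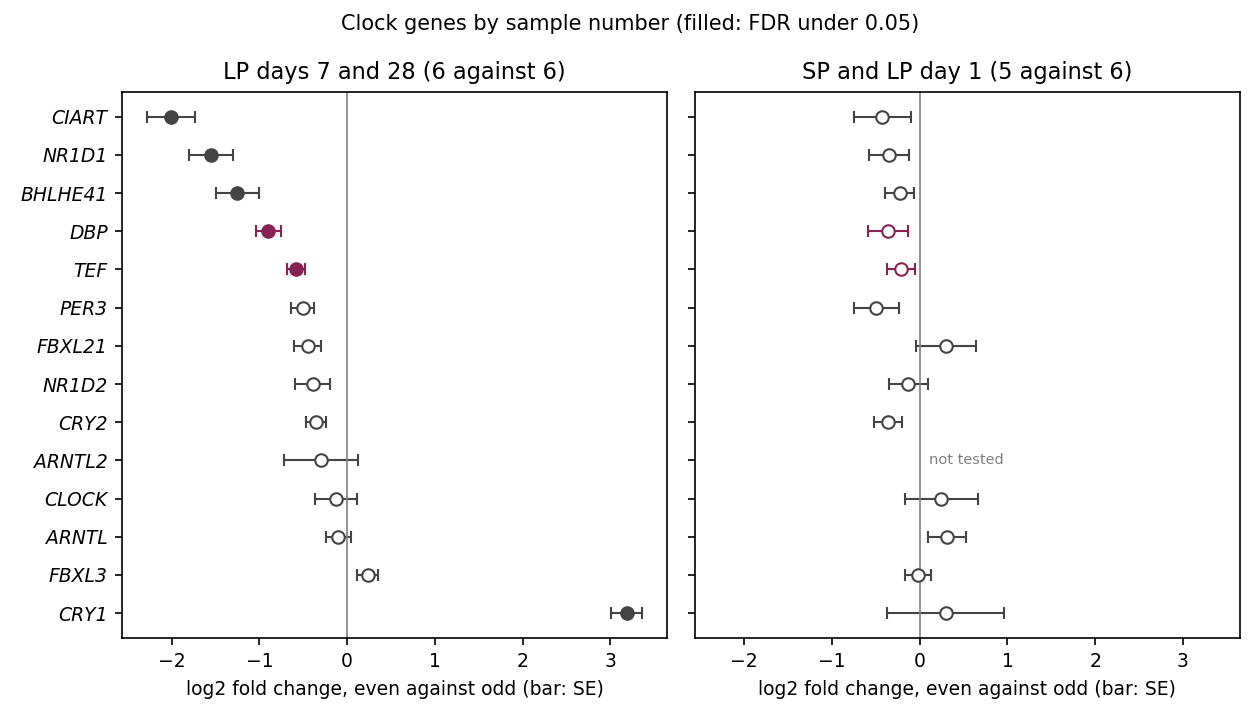
Log2 fold change of even against odd sample numbers, with its standard error, for DBP, TEF (red) and the 12 paired clock genes at LP days 7 and 28 (left) and on SPs and LP day 1 (right), with filled symbols for an edgeR FDR under 0.05. At LP days 7 and 28, CIART, NR1D1, BHLHE41, DBP and TEF are filled below 0 and CRY1 above it at 3.18, and on SPs and LP day 1 no symbol is filled.

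Of the D-box partners and targets, 4 of 5 listed genes could be paired. EYA3 at LP days 7 and 28 was at 123 to 969 CPM in odd samples and 30.9 to 58.5 CPM in even ones. These did not overlap, as for 1.33% of genes tested. The even samples were lower by -3.36 on the log2 scale (standard error 0.34, edgeR FDR 5.69e-05), the same direction as DBP and TEF. On SPs and LP day 1 EYA3 did not pass the test by parity (0.27, standard error 0.27, edgeR FDR 1.00), and the difference of the contrasts, -3.59 (standard error 0.45, edgeR FDR 0.000253), was called. Between SPs and LP day 28, EYA3 rose by 2.57 (standard error 0.57, edgeR FDR 0.0481). Its mean was 31.9 CPM on SPs, and 334 CPM in odd and 47.7 CPM in even samples of LP day 28. Taken within each parity, this difference was called among odd samples and not among even samples.

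TSHB, which encodes the beta subunit of thyrotrophin, did not pass the test by parity at LP days 7 and 28 (0.52, standard error 0.22, edgeR FDR 0.407), where odd and even samples overlapped. Within LP day 7 it was at 289 to 452 CPM in odd and 666 to 1151 CPM in even samples, without overlap, as for 15% of genes. That difference was opposite in direction to DBP and TEF (1.17, standard error 0.36, edgeR FDR 0.305). On SPs TSHB was at 47.0 to 265 CPM in odd and 625.5 to 664 CPM in even samples (1.90, standard error 0.39, edgeR FDR 0.377). These did not overlap either, as for 24.1% of genes. TSHB rose by 2.25 on the log2 scale at LP day 28 against LP day 1 (standard error 0.18, edgeR FDR 5.51e-07), and against SPs it gave 1.75 (standard error 0.41, edgeR FDR 0.0615). SIX6, a homeobox factor, and CGA, the alpha subunit, were called in none of the 6 comparisons of photoperiod groups, nor by parity. None of 5 listed PAR bZIP targets of other tissues could be paired, so they are not reported here.

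In tissue RNA, fewer cells of a type and less RNA per cell cannot be told apart, so cell type markers are given beside the contrast by parity. In the samples of LP days 7 and 28, the 5 PT thyrotroph markers summed to 7975 to 13807 CPM in odd and to 8972 to 11281 CPM in even samples. CGA alone was at 5200 to 10401 CPM in these samples, so the sum mainly follows CGA. Of the 5 markers, EYA3 and the melatonin receptor gene MTNR1A were called lower in even samples. MTNR1A was at 14.5 to 41.5 CPM in odd and at 0.537 to 7.02 CPM in even samples, without overlap, as for 1.33% of genes tested. MTNR1A was listed at 0 in 1 of the 23 samples, and no other paired marker was at 0 in any. None of the 6 pars distalis markers was called, and their sum was 46515 to 272700 CPM in odd and 74590 to 252933 CPM in even samples. The 3 folliculostellate or glial markers (970 to 1317 and 841 to 1471 CPM) and the 2 paired blood and immune markers (157 to 764 and 255 to 490 CPM) were not called. Within LP day 7, however, the blood and immune markers PTPRC and CD74 were both higher in even samples without overlap, as 15% of genes did not overlap there, with sums of 157 to 197 CPM in odd and 279 to 490 CPM in even samples. Their log2 fold changes were 1.24 for PTPRC (standard error 0.51, edgeR FDR 0.627) and 1.20 for CD74 (standard error 0.37, edgeR FDR 0.306). Within LP day 28 they were -0.35 (standard error 0.50, edgeR FDR 0.974) and -0.68 (standard error 0.36, edgeR FDR 0.891), with sums of 255 to 764 CPM in odd and 255 to 355 CPM in even samples. Their part in the contrast of DBP and TEF was not tested. With the log2 of the summed level of PRL, GH1, POMC, LHB and FSHB as a covariate, DBP and TEF were still called. POU1F1, the other pars distalis marker, was not in that sum. No endothelial or neuronal marker could be paired, and the part of those cells in the contrast was not tested.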

How the data were processed

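PT libraries of 23 samples were analysed. The authors deposited whole-number counts of reads per Ensembl sheep gene (Oar v3.1 in the submitters' processing notes). Those notes and the paper name Bowtie and HTSeq, whereas the file headers have the form that featureCounts writes, so the counting program was not settled. Groups and sample numbers were taken from the labels, and symbols from the study's tables of changed genes, which pair 1259 identifiers. Symbols were used from these tables and none of their values.

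The counts were fitted with edgeR 4.0.16 (R 4.3.3). Each fit used TMM normalization, genes over 1 CPM in no fewer samples than the smaller group holds (5 for the fit of all 23 samples), the quasi-likelihood test, and Benjamini-Hochberg adjustment over all genes tested, with calls at an FDR under 0.05. The paper names edgeR, and which of its tests was used is not given in the sources used here. Each standard error was taken as the size of the log2 fold change over the root of its F value. CPM values were TMM normalized over all 23 samples, and log2 CPM had a prior count of 2. Permutation tests used scipy 1.17.1. Those of the count ratio used all regroupings, and those of correlation used 100000 resamples, or all pairings where under 10 samples. The smallest unadjusted p that the ratio test could give over 6 against 6 samples was 0.00216. Counts of 3 were taken as the lowest detectable level, which covers counting error only. Fits were tested on simulated data.

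Clock genes were named where called or among the 4 largest changes, and genes most like a factor as the 8 highest and 4 lowest correlations. Both factors, the lists and the split by sample number were chosen with earlier results of these data known. Alternatives were DESeq2 1.42.0, limma 3.58.1 voom with quality weights, the exact test, other normalizations and filters, covariates, all groups in a single fit, SP samples 2, 3 and 5 alone, LP day 1 samples 3 and 4 summed, and each sample left out. The library set, sample numbers 1 to 3 against the rest, is not named in the labels or headers. It was inferred from header numbers that are unique only within each set, and was added as a covariate after seeing the data. No genome, annotation or sequence was used.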

Additional observations from a re-analysis of the deposited data

How the results depend on the processing

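The lower levels of DBP and TEF in even samples of LP days 7 and 28 kept their direction and call in all 22 alternatives. The TEF difference at LP day 28 against SPs passed with parity as a covariate (0.523). That of DBP by parity within LP day 7 passed without a filter (-0.936). Both rest on the split by sample number, which was proposed with earlier results of these data known. Signs turned in 4 uncalled results, which were DBP at LP day 1 against SPs with the replicate block (0.0362), TEF at LP day 28 against LP day 7 by library size only (-0.0263), TEF by parity within LP day 1 with samples 3 and 4 summed (-0.0261), and DBP at LP day 1 against SPs among even samples with SP samples 2, 3 and 5 (-0.0272).

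With 1 sample left out, DBP at LP day 1 against SPs ranged from -0.248 to 0.0817, among odd samples from -0.527 to 0.0128 and among even samples from -0.027 to 0.306. TEF by parity within LP day 1 ranged from -0.0121 to 0.211, and the log2 ratio at LP day 7 against SPs from -0.0847 (without SP sample 5) to 0.228. Clock genes called ranged from 0 to 1 at LP day 7 and from 1 to 2 at LP day 28 against SPs, and from 1 to 2 at LP day 28 against LP day 1.

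Clock genes called at LP day 7 against SPs (1) were 2 in the exact test, 3 with the replicate block, 5 with parity as a covariate, and 0 with voom, filterByExpr, the library set or SP samples 2, 3 and 5. At LP day 28 against SPs (2) they were 1 with voom, the upper quartile, the replicate block, the pars distalis markers, the library set, or SP samples 2, 3 and 5. At LP day 28 against LP day 1 (1) they were 3 in the exact test, 2 with DESeq2 or no filter, and 0 with filterByExpr. The exact test called 1 at LP day 7 against LP day 1, and the fit without a filter 1 in the difference of the contrasts. The cause was not tested.

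Over all genes, DESeq2 called 357 at LP day 7 against SPs (40 in edgeR), 346 at LP day 28 against SPs (100), 63 at LP day 28 against LP day 1 (32), 264 by parity at LP days 7 and 28 (152) and 17 in the difference of the contrasts (4). Parity as a covariate gave 334 and 154 at LP days 7 and 28 against SPs, and SP samples 2, 3 and 5 gave 6 and 48. With 1 sample left out, these counts ranged from 7 to 113 and from 41 to 110 at LP days 7 and 28 against SPs, from 0 to 4 at LP day 1 against SPs, from 1 to 6 and from 19 to 58 at LP days 7 and 28 against LP day 1, from 1 to 5 at LP day 28 against LP day 7, from 113 to 159 by parity at LP days 7 and 28, from 0 to 1 by parity on SPs and LP day 1, and from 2 to 12 in the difference of the contrasts.

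Samples that share a number did not in general deviate together. Of 33 correlations between them, from -0.189 to 0.279, 5 were over 0.1, so the numbers were not taken as pairs. Samples numbered 1 gave 0.279, 0.174 and 0.135 among the LP groups, and -0.172, -0.102 and -0.00116 between SPs and the LP groups. The replicate block gave 178 and 41 genes called at LP days 7 and 28 against SPs and changed no call of DBP or TEF. Depth limits the LP day 1 values most, since 1 of its 6 samples had 307952 counts.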

Other observations

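CRY1, looked at by sample after its values were seen, did not follow odd and even numbers on SPs and LP day 1. On SPs it was at 22.5, 206, 22.8, 237 and 406 CPM in samples 1 to 5, where DBP was at 153, 94.5, 157, 74.9 and 60.1 CPM. At LP day 1 CRY1 was at 28.3, 235, 261, 282, 209 and 34.5 CPM in samples 1 to 6, where DBP was at 76.1, 100.3, 122, 113, 125 and 75.6 CPM. SP samples 1 and 3 had the lowest CRY1 and the highest DBP of their group, whereas LP day 1 samples 1 and 6 had the lowest of both. TEF was at 142 and 125 CPM in SP samples 1 and 3 and at 115 and 113 CPM in LP day 1 samples 1 and 6. No group was formed from these values and no test was made.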
